A study of Mus musculus with 18 samples.

Results

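The miR-193 and miR-365 family was described here in mouse kidney through 4 mature microRNAs (miRNAs), mmu-miR-193a-3p, mmu-miR-193a-5p, mmu-miR-193b-3p and mmu-miR-365-3p. They were taken by name from the deposited table of small RNA reads, where all 4 were found among 735 different mouse names, and they stand there on 5 of 1184 named entries because miR-365-3p is listed 2 times. The prefix mmu is mostly left out below. Kidney small RNA libraries came from 3 groups, with 6 libraries in each. Control kidneys were from C57BL/6J mice given 0.9% saline. Kidneys with diabetic nephropathy (DN) were from C57BL/KsJ mice given saline as well, and treated kidneys were from C57BL/KsJ mice with DN given 10 mg/kg/day of germacrone, a sesquiterpene found in plants. The labels name no genotype, age or inducing agent. They also do not say that each library is a separate mouse, and every p-value below thus rests on the scatter of these libraries, part of which may be technical. Because the control mice were of another strain than both DN groups, an effect of strain and an effect of disease cannot be told apart in comparisons against control. Which values the family was selected on is not recorded. A lower level of miR-193a-3p in DN than in control was already known, the contrast is taken as used in the choice, and the difference between DN and control is therefore given as a description, without a test.

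A miRNA binds target messenger RNAs mainly through its seed, the bases that follow the first base at its 5′ end, and lowers their translation and stability. Both strands (arms) of the hairpin precursor can give a mature miRNA, named 5p and 3p after their side of the hairpin. Genes of the miR-193 and miR-365 family lie in a pair of small clusters, each with 1 miR-193 hairpin and 1 miR-365 hairpin. The cluster with miR-193b has been studied in brown fat and muscle differentiation in mice, and miR-193a has been reported to lower the podocyte transcription factor Wt1 and to damage the glomerular filter in mice.

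The mature sequences are shown because they decide which members can act on the same targets and which reads the members can share. Sequences are those of RefSeq on GRCm38.p6, where all 7 mature miRNAs of the 4 hairpins were found; capitals mark the seed, bases 2 to 8.
mmu-miR-193a-3p: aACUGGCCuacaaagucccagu
mmu-miR-193b-3p: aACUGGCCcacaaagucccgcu
mmu-miR-193a-5p: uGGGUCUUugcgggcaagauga
mmu-miR-193b-5p: cGGGGUUUugagggcgagauga
mmu-miR-365-3p: uAAUGCCCcuaaaaauccuuau
mmu-miR-365-2-5p: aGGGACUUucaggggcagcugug
mmu-miR-365-1-5p: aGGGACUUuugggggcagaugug

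The seed ACUGGCC was shared by miR-193a-3p and miR-193b-3p and by no other of 1679 mature mouse names in the same table, and the seeds of miR-193a-5p and miR-365-3p each belonged to 1 name. Over their 22 bases the miR-193a-3p and miR-193b-3p sequences had 19 in common (86.4%). They differ, counted from 1 at the 5′ end with the miR-193a-3p base first, by U9C, A20G and G21C. A read cut short before the second of these positions is told apart by a single base, and in treated 5 both miRNAs had a count with a fraction, 737.5 for miR-193a-3p and 1642.5 for miR-193b-3p. The deposited values of both may therefore be uncertain by reads that match either.

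The 4 hairpins lie on 2 chromosomes, and their sequences are shown to place the members in them; capitals mark both mature arms.
Mir193a: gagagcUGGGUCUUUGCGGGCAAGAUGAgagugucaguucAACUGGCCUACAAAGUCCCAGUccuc
Mir193b: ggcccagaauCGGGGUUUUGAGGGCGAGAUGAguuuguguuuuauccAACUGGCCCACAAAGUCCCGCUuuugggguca
Mir365-2: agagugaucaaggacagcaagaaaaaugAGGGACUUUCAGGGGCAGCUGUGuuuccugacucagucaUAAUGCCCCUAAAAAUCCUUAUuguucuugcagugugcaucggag
Mir365-1: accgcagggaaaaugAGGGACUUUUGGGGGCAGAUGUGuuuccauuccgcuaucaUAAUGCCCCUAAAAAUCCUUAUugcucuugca
On the plus strand of chromosome 11 (GRCm38.p6), Mir193a occupies chr11:79711969-79712034 and Mir365-2 chr11:79726400-79726511, with 14365 bases between them. On the plus strand of chromosome 16, Mir193b occupies chr16:13449523-13449601 and Mir365-1 chr16:13453840-13453926, with 4238 bases between them. In the GENCODE M21 annotation neither hairpin on chromosome 11 overlaps another gene, and both hairpins on chromosome 16 lie within Gm15738, a gene annotated as antisense on the minus strand (chr16:13354374-13468755). The mature miR-365-3p is the same in Mir365-1 and Mir365-2, so its reads cannot be assigned to a chromosome. The 2 entries of miR-365-3p were identical in all 18 libraries, and 10 of the 18 values ended in 0.5, as reads divided equally between the entries would. The value of 1 entry is used below; both entries together are double that value.

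Library totals ran from 3645173 to 7239343 reads, and each level is in CPM (read counts scaled to a common library total) adjusted with TMM factors, which align the bulk of the miRNAs. Kidney epithelial miRNAs, the check of the labelled tissue, had 9 of 9 markers above 0 in every library and summed to 71677 CPM in DN 2, while all other libraries lay between 131790 and 272089 CPM. DN 2 stood apart: miR-21a-5p, a miRNA raised in injured kidney, took 22.6% of its named counts, where the remaining DN libraries had 2.46% to 6.56%. Its leukocyte miRNAs, with 7 of 7 markers above 0 in every library, summed to 25947 CPM, where the remaining DN libraries had 1589 to 2360 CPM. In bulk kidney, fewer cells of a type and less miRNA per cell cannot be told apart.

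Of the 4 members, all of 22 bases, miR-365-3p was the most abundant, at a mean of 1197 CPM over the 18 libraries for 1 entry, which ranked 66 of 505 tested names. miR-193b-3p followed at 207 CPM, miR-193a-3p at 134 and miR-193a-5p at 84.8. Between libraries miR-193a-3p ranged 5.33-fold, miR-193b-3p 5.67-fold, miR-365-3p 6.67-fold and miR-193a-5p 11.7-fold. The lowest library of all 4 was DN 2.

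mmu-miR-193a-3p, the Wt1-linked member, was at 120 CPM in the lowest control, 193 at the control median and 232 in the highest control. In DN it was at 43.5, 103 and 147 CPM, and in treated kidneys at 74.1, 136 and 139 CPM in the same order. 4 of 6 DN libraries lay below every control library, and DN 1 and DN 3 fell inside the control range. Treated libraries split, with 4 between 134 and 139 CPM and treated 3 and treated 6 at 74.1 and 75.5.

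mmu-miR-193a-5p, from the other arm of the same hairpin, was at 78.6, 107 and 185 CPM in control as lowest, median and highest value. In DN it was at 15.9, 62.4 and 168 CPM and in treated kidneys at 54.0, 68.2 and 82.1 CPM. All DN libraries except DN 3 lay below every control, and the treated libraries kept within the narrowest range, with only treated 5 reaching into the control range.

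mmu-miR-193b-3p, with the seed of miR-193a-3p but from chromosome 16, was the most variable member in control, at 107, 278 and 491 CPM as lowest, median and highest value. In DN it was at 86.6, 116 and 444 CPM and in treated kidneys at 88.3, 129 and 308 CPM. The highest values came from control 4 (491), control 2 (475), DN 3 (444) and treated 5 (308), and the groups overlapped over most of their range.

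mmu-miR-365-3p was at 1055, 1502 and 2457 CPM in control, at 368, 906 and 2236 CPM in DN and at 735, 903 and 1278 CPM in treated kidneys, for 1 entry. DN 3 was above 5 of 6 controls, 4 of 6 DN libraries were below every control, and 5 of 6 treated libraries were below every control. Both entries together came to 3209 ± 1098 CPM (SD, n = 6) in control, 2069 ± 1282 in DN and 1901 ± 368 in treated kidneys.

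**Figure D1:**
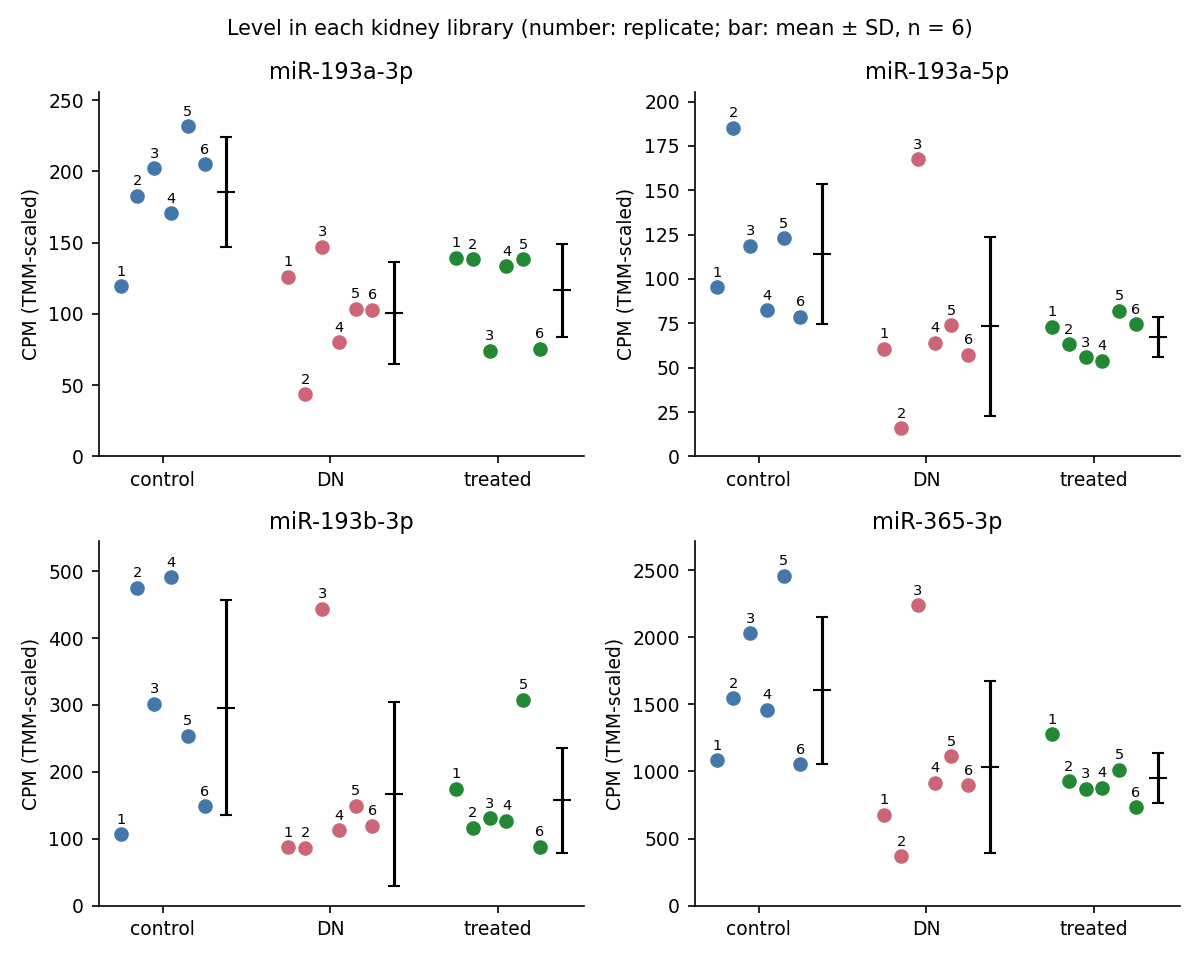
CPM (vertical axis, from 0) of the 4 members in each library, 6 per group, with the replicate number at each point and the mean ± SD (n = 6) at the right of each group. DN 2 is the lowest library for all 4 members, DN 3 is the highest DN library for all 4, and most DN and treated libraries sit below most controls.

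DN against control asks how the members differ between kidneys with diabetic nephropathy and control kidneys, and is given without a test. All 4 members had a lower fitted level in DN. miR-193a-3p averaged 101 ± 36.1 CPM in DN kidneys against 185 ± 38.5 CPM in controls (SD, n = 6 each), a log2 fold change (log2FC) of -0.88 with a standard error (SE) of 0.263, or 1.84-fold lower. miR-193b-3p was at 167 ± 138 against 296 ± 161 CPM (log2FC -0.83, SE 0.445). miR-193a-5p was at 73.2 ± 50.4 against 114 ± 39.5 CPM (log2FC -0.64, SE 0.362), and miR-365-3p at 1035 ± 641 against 1605 ± 549 CPM (log2FC -0.63, SE 0.32). miR-193a-3p had the smallest SE of the 4, and for the other 3 members the SD of the DN libraries was over 50% of their mean, at 68.8%, 82.7% and 62.0% for miR-193a-5p, miR-193b-3p and miR-365-3p. All 4 members were below 0, as were 43.5% of the 619 tested entries, whose median log2FC was 0.075. By edgeR's quasi-likelihood test 0 of 619 entries passed an adjusted p of 0.05 (0%), with 47 at an unadjusted p under 0.05 (7.59%, made up of 5.17% higher and 2.42% lower) and 4 called by DESeq2. No entry had separate groups, with every library of one group below every library of the other (0%).

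Single libraries moved these differences in opposite directions. Without DN 3, which was high in all 4 members, the log2FC was -1.07 for miR-193a-5p, -1.40 for miR-193b-3p and -1.03 for miR-365-3p. Without DN 2 it was -0.37 for miR-193a-5p and -0.41 for miR-365-3p. Leaving out control 2 gave -0.39 for miR-193a-5p and -0.54 for miR-193b-3p, and leaving out control 5 gave -0.39 for miR-365-3p. miR-193a-3p kept between -1.03 and -0.69 when any 1 library was left out. The leukocyte miRNAs, at 3176 to 4225 CPM in control, lay below that in 5 of the DN libraries and far above it in DN 2, where all members were lowest. With group means taken away, r between a member and the summed leukocyte miRNAs over the 18 libraries was -0.76 for miR-193a-3p, -0.57 for miR-193a-5p, -0.56 for miR-365-3p and -0.23 for miR-193b-3p. Without DN 2 and treated 6, the libraries farthest from the leukocyte median, it was -0.30, 0.41, 0.27 and 0.45 in that order, so the negative values of the last 3 rest on those libraries. Summed kidney epithelial miRNAs, with group means taken away, had r of 0.28, 0.38, 0.19 and -0.081 in the same order. Those r were -0.55, -0.70, -0.65 and -0.53 without DN 2 and control 5, the farthest from their median. Endothelial miRNAs likewise had 0.21, -0.16, -0.11 and -0.40. Leaving out DN 2 and DN 3, the farthest there, gave 0.088, -0.92, -0.26 and -0.36. Further marker lists were compared and are not given. These r values are descriptions with no test.

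Treated against DN asks whether the members differ after germacrone. The DN libraries of this comparison are taken as used in the choice of the family, so for miR-193a-3p, taken up as low in them, a higher value in treated kidneys is not independent of that choice. None of the members passed the test, by which 0 of 619 entries (0%) were called, with 23 at an unadjusted p under 0.05 (3.72%, made up of 0.808% higher and 2.91% lower) and 0 by DESeq2. Of the 4 members 3 were below 0, as were 57.8% of all entries. miR-193a-3p was at 117 ± 32.5 CPM in treated and 101 ± 36.1 in DN kidneys (SD, n = 6 each), with a log2FC of 0.21 (SE 0.264, 95% interval -0.34 to 0.76, edgeR adjusted p = 0.895). For miR-193a-5p the log2FC was -0.12 (interval -0.88 to 0.64, edgeR adjusted p = 0.970), at 67.2 ± 11.2 against 73.2 ± 50.4 CPM. miR-193b-3p had -0.08 (interval -1.01 to 0.85, edgeR adjusted p = 0.991) and miR-365-3p had -0.12 (interval -0.79 to 0.55, edgeR adjusted p = 0.959). All 6 treated libraries fell inside the DN range for each of the 4 members, but its ends were DN 2 and DN 3 each time. Among the remaining DN libraries miR-193a-3p ran from 80.3 to 126 CPM and miR-193a-5p from 57.3 to 73.9 CPM. Every treated library lay outside for miR-193a-3p, at 74.1, 75.5 and 134 to 139 CPM. Those of miR-193a-5p, 54.0 to 82.1 CPM, reached past both ends. Most treated libraries lay inside for miR-193b-3p and miR-365-3p. The intervals leave room for a change of about the size seen between DN and control in either direction for miR-193a-5p and miR-193b-3p. Upper ends for miR-193a-3p and miR-365-3p, 0.76 and 0.55, reach most of the size of their DN against control log2FC, -0.88 and -0.63.

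The direction of 3 of these 4 differences turned with DN 3: without it, the log2FC was 0.30 for miR-193a-5p, 0.49 for miR-193b-3p and 0.25 for miR-365-3p. Without DN 2, miR-193a-3p had a log2FC of 0.0086, miR-193a-5p of -0.40, miR-193b-3p of -0.31 and miR-365-3p of -0.36.

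Treated against control asks how far the kidneys of treated mice stand from control kidneys. It shares its control libraries with the comparison taken as used in the choice of the family, so it does not stand apart from that choice. All 4 members had a lower fitted level in treated kidneys and none passed the test over all entries. miR-193a-3p was at 117 ± 32.5 against 185 ± 38.5 CPM (SD, n = 6 each; log2FC -0.67, SE 0.263, interval -1.22 to -0.12, edgeR adjusted p = 0.186). miR-365-3p was at 951 ± 184 against 1605 ± 549 CPM (log2FC -0.76, SE 0.32, interval -1.42 to -0.086, edgeR adjusted p = 0.202). miR-193a-5p was at 67.2 ± 11.2 against 114 ± 39.5 CPM (log2FC -0.76, SE 0.362, edgeR adjusted p = 0.253) and miR-193b-3p at 158 ± 78.8 against 296 ± 161 CPM (log2FC -0.91, SE 0.445, edgeR adjusted p = 0.263). For miR-193a-3p, miR-193a-5p and miR-365-3p all 6 treated libraries were below the control median, and for miR-193b-3p 5 of 6.

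Before adjustment 2 of the 4 members, miR-193a-3p and miR-365-3p, were under 0.05 in the edgeR test. So were 121 of 619 entries (19.5%, made up of 10.7% higher and 8.89% lower), while 0 (0%) were called after adjustment by edgeR and 24 by DESeq2. Over all tested entries the median log2FC was -0.0035 and 50.2% were below 0. The groups overlapped in each of the 4 members, whereas 10 entries (1.62%) had every treated library below every control and 22 (3.55%) every treated library above. With limma-voom and sample weights, 106 of 619 entries were called. They included miR-193a-3p (limma-voom adjusted p = 0.0322), miR-193a-5p (adjusted p = 0.0219) and miR-365-3p (adjusted p = 0.0296), but not miR-193b-3p (adjusted p = 0.143). Over all alternatives the adjusted p ran from 0.032 to 0.378 for miR-193a-3p, 0.022 to 0.562 for miR-193a-5p and 0.030 to 0.436 for miR-365-3p. Kidney epithelial miRNAs summed to 197673 to 272089 CPM in treated and 131790 to 202768 CPM in control libraries, and leukocyte miRNAs to 1847 to 3080 CPM in 5 treated libraries and 9117 CPM in treated 6, against 3176 to 4225 in control. Their part in the lower levels of treated kidneys was not tested.

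**Figure D2:**
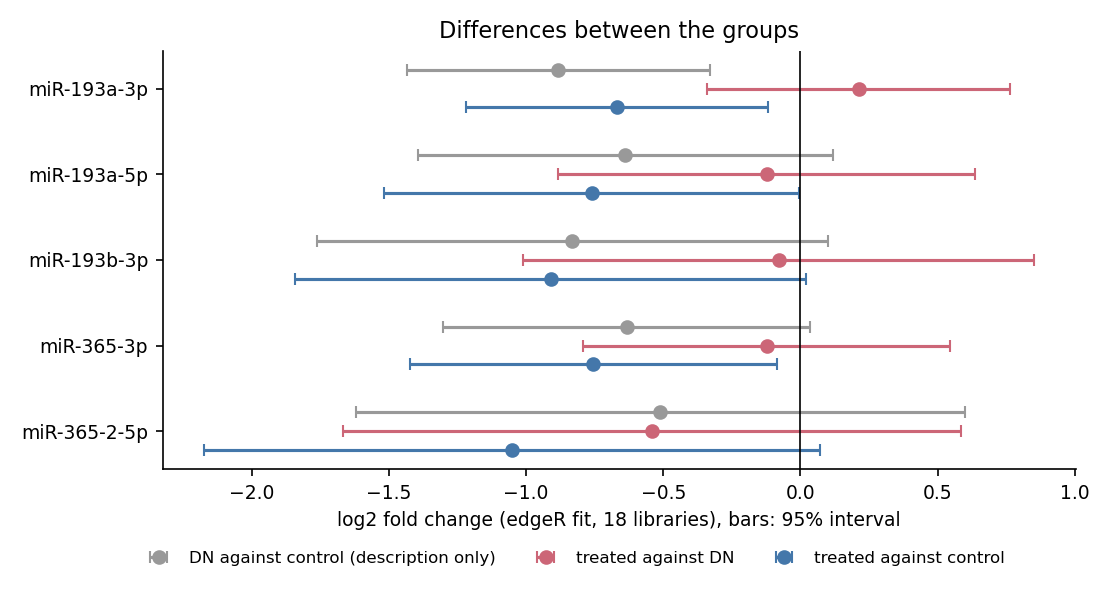
Log2 fold change (horizontal axis) from the edgeR fit on 18 libraries for the 4 members and for miR-365-2-5p, with 95% intervals, in 3 comparisons. Values against control lie below 0 for all 5 miRNAs and values of treated against DN lie within 0.21 of 0 for the 4 members. Every interval of treated against DN takes in 0. In treated against control, those of miR-193b-3p and miR-365-2-5p also take in 0. The upper end for miR-193a-5p there is -0.0032, although its unadjusted p in the edgeR test was 0.0502. The intervals are built from the SE and need not match that test at 0.05. Those of DN against control are a description and are not read against 0.

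The members were also set against each other within each library, which does not depend on how libraries are scaled. The 4 ratios did not differ between treated and DN or between treated and control kidneys by more than the spread between libraries (8 exact permutation tests on the difference in mean log2 ratio, 2-sided, adjusted p = 0.981 in each; 6 libraries against 6 can reach 0.00216 before adjustment). The log2 ratio of the miR-193a arms, 3p to 5p, was 0.74 ± 0.51 in control, 0.66 ± 0.57 in DN and 0.75 ± 0.48 in treated kidneys (SD, n = 6 each). That of miR-193a-3p to its seed partner miR-193b-3p was -0.50 ± 0.81 in control, -0.55 ± 0.71 in DN and -0.37 ± 0.53 in treated kidneys. The log2 ratio of miR-193b-3p to miR-365-3p was -2.57 ± 0.76, -2.70 ± 0.39 and -2.69 ± 0.49, and of miR-193a-3p to miR-365-3p -3.07 ± 0.37, -3.24 ± 0.51 and -3.06 ± 0.34 in the same order. Differences of treated against DN were at most 0.19, below the SD of each group.

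Raw reads of miR-193a-3p were 0.879 times those of miR-193a-5p in DN 3, 0.988 times in control 2 and 1.01 times in treated 6, and 2.74 times in DN 2, 2.61 times in control 6 and 2.47 times in treated 4. Which arm was the larger thus differed between libraries of all but the treated group. Raw reads of miR-193b-3p were 3.01 times those of miR-193a-3p in DN 3, 2.87 times in control 4 and 2.59 times in control 2, and 0.693 times in DN 1 and 0.725 times in control 6.

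**Figure D3:**
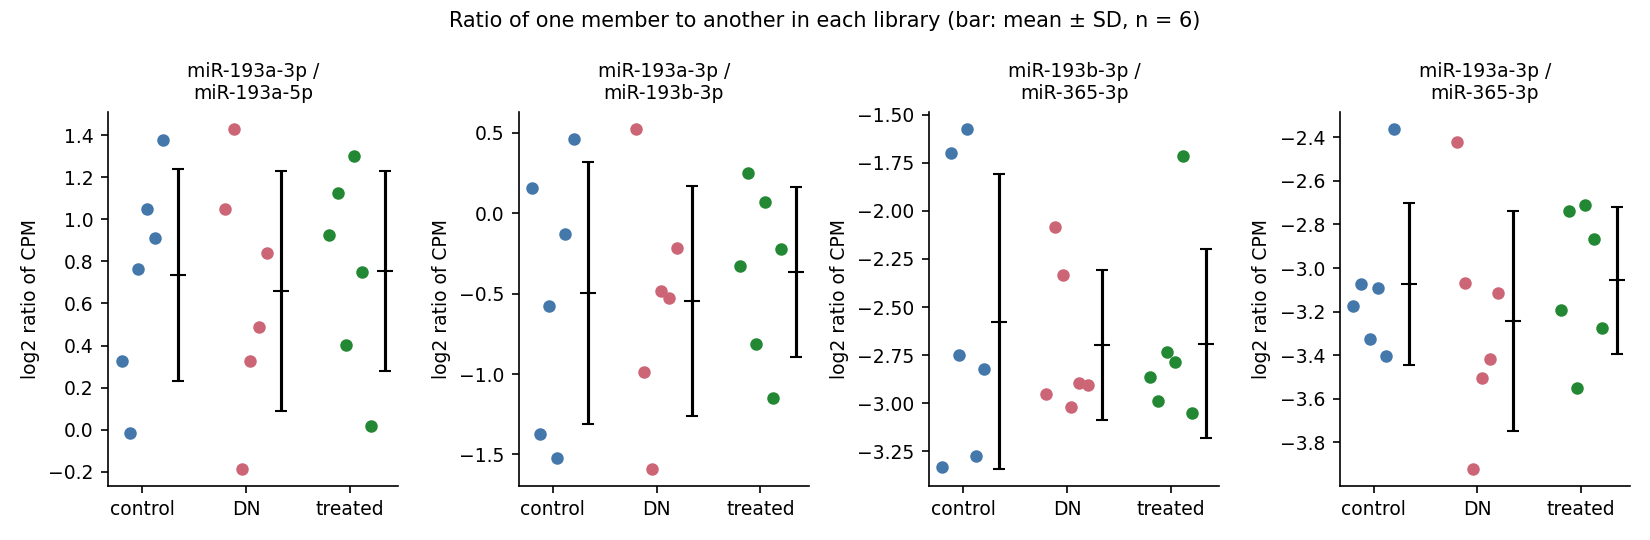
Log2 ratio of CPM (vertical axis) of one member to another in each library, by group, with mean ± SD (n = 6). For each of the 4 pairs the groups overlap almost wholly, with group means within 0.19 of each other.

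Levels of the members went together across the 18 libraries. The permutations shuffle all 18 libraries, so the DN against control difference, taken as used in the choice, also enters their p-values. After group means were taken away, the unadjusted permutation p for miR-365-3p was 0.00024 with miR-193a-5p, 0.0011 with miR-193b-3p and 0.00076 with miR-193a-3p. That shuffle neither kept libraries within their group nor allowed for the means taken away. Such p-values, here and below, are thus not tests within groups and may be too small. Of 10 relations between log2 levels of the 4 members and miR-365-2-5p, the closest was miR-193a-5p with miR-365-3p, with Pearson's r = 0.88 (permutation p = 1e-05, the smallest that 100000 resamples give, adjusted 0.0001) and Spearman's rho = 0.85 (permutation p = 4e-05, adjusted 0.0004). It was 0.87 without control 2 and DN 2, the libraries farthest from the median of miR-193a-5p, and 0.84 with each group's mean taken away. For every relation here and below, the libraries left out were chosen by the level of a single miRNA of the pair. DN 2 and DN 3 thus stayed in for miR-193b-3p with miR-365-3p. miR-193b-3p with miR-365-3p had r = 0.78 (permutation p = 8e-05, adjusted 0.0002) and rho = 0.81 (permutation p = 8e-05, adjusted 0.0004), with r = 0.82 without control 2 and control 4 and 0.70 with group means taken away. miR-193a-3p with miR-365-3p had r = 0.81 (permutation p = 6e-05, adjusted 0.0002) and rho = 0.80 (permutation p = 0.00012, adjusted 0.0004), with r = 0.70 without DN 2 and treated 3 and 0.72 with group means taken away.

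Among themselves the miR-193 members had lower r values. For the arms of miR-193a, r was 0.76 (permutation p = 0.00058, adjusted 0.000967) and rho 0.70 (permutation p = 0.00144, adjusted 0.00288), and r fell to 0.54 without DN 2 and treated 3. For the seed partners miR-193a-3p and miR-193b-3p, r was 0.65 (permutation p = 0.0034, adjusted 0.00425) and rho 0.71 (permutation p = 0.00129, adjusted 0.00288), with 0.63 without DN 2 and treated 3 and 0.51 with group means taken away. miR-193a-5p with miR-193b-3p had r = 0.70 (permutation p = 0.00018, adjusted 0.00036), rho = 0.68 (permutation p = 0.00247, adjusted 0.00353) and 0.69 without control 2 and DN 2. After group means were taken away, r was 0.66 for the arms of miR-193a (unadjusted permutation p = 0.00276). It was then 0.61 for miR-193a-5p with miR-193b-3p (unadjusted permutation p = 0.00755). The seed partners then had an unadjusted permutation p of 0.0321. Whether any of these values of r differs from another was not tested. The points share their library's scaling and its mixture of cells.

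**Figure D4:**
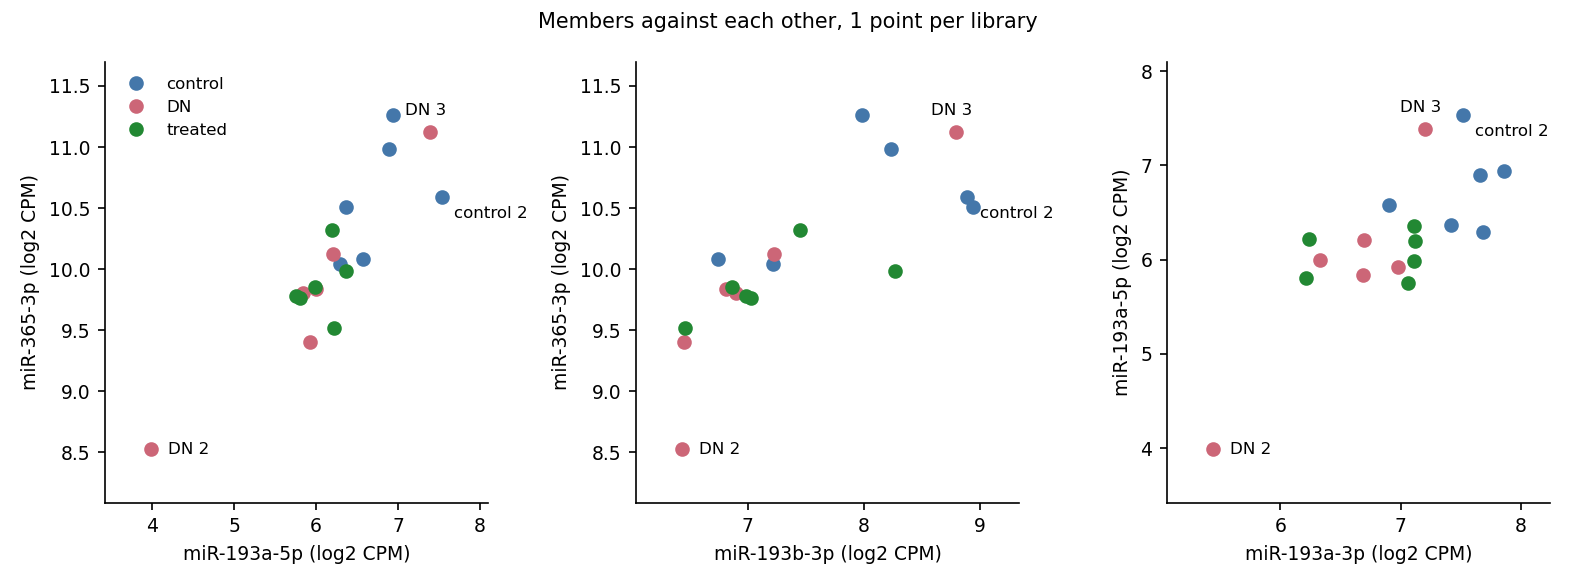
Log2 CPM of one member against another, 1 point per library, coloured by group, with control 2, DN 2 and DN 3 named. Left, miR-365-3p rises with miR-193a-5p (r = 0.88); middle, with miR-193b-3p (r = 0.78); right, miR-193a-5p rises with miR-193a-3p (r = 0.76), where r is 0.54 without DN 2 and treated 3.

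Other arms of the hairpins were far less abundant than the members. miR-193b-5p had 103 reads over the 18 libraries against 18910 of miR-193b-3p, which is 184-fold more, while the arms of miR-193a differed only 1.53-fold, at 11657 reads of 3p and 7627 of 5p. miR-193b-5p was above 0 in 5 of 6 control, 2 of 6 DN and 1 of 6 treated libraries and did not pass the filter on low counts. The 5p arms of miR-365 differ in sequence, so their own reads can be placed on a hairpin. How much miR-365-3p came from each hairpin cannot be read from them, since the proportion of arms differed widely between the miR-193 hairpins. miR-365-2-5p, from chromosome 11, had 871 reads and was above 0 in all 18 libraries, whereas miR-365-1-5p, from chromosome 16, had 15 reads, with 7 in control 2 and 8 in control 3. It was listed at 0 in the other libraries. These arms share 20 of 23 bases, and no value above 0 under 5 was listed for miR-193b-5p or miR-365-1-5p, so that a 0 there need not mean that no read was found.

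miR-365-2-5p passed the filter, at 12.7 ± 8.63 CPM in control, 8.92 ± 6.60 in DN and 6.07 ± 3.27 in treated kidneys (SD, n = 6 each), and its highest library was control 2 at 28.5. Its log2FC was -0.54 in treated against DN (edgeR adjusted p = 0.830) and -1.05 in treated against control (SE 0.536, edgeR adjusted p = 0.289), the latter -0.62 without control 2. The former ran from -0.82 without DN 2 to -0.11 without DN 3, and was also -0.82 without treated 6. In DN against control it was -0.51, and it was -0.038 without control 2, -0.28 without DN 1, -0.24 without DN 2 and -0.94 without DN 3. Across libraries it went with miR-193a-5p, its neighbour on chromosome 11, at r = 0.79 (permutation p = 2e-05, adjusted 0.0001) and rho = 0.70 (permutation p = 0.0018, adjusted 0.003), with 0.70 without control 2 and DN 2. Its r was 0.71 with miR-365-3p (permutation p = 0.00104, adjusted 0.00149; rho = 0.58, permutation p = 0.0137, adjusted 0.0171; r = 0.63 without control 5 and DN 2). With miR-193b-3p, from chromosome 16, it was 0.64 (permutation p = 0.00411, adjusted 0.00457; rho = 0.52, permutation p = 0.0298, adjusted 0.0331; r = 0.66 without control 2 and control 4). With miR-193a-3p, from chromosome 11, it had r = 0.49 (permutation p = 0.0387, adjusted 0.0387) and rho = 0.38 (permutation p = 0.117, adjusted 0.117). That r fell to 0.19 without DN 2 and treated 3 and so rests on those libraries. After group means were taken away, the r values of miR-365-2-5p were 0.78, 0.66, 0.58 and 0.40 in the order given. Their unadjusted permutation p was 1e-05, 0.00218, 0.0118 and 0.101.

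The tested mouse miRNAs whose log2 levels were most like those of a member over the 18 libraries, among 436 names outside the family, are named next. For miR-193a-3p they were miR-29c-5p (r = 0.88), miR-874-5p (0.81) and miR-3105-5p (0.81). For miR-193a-5p they were miR-378a-5p (r = 0.94), from an intron of the metabolic coactivator gene Ppargc1b, miR-29b-2-5p (0.94) and miR-874-5p (0.92). miR-193b-3p was most like miR-664-3p (r = 0.86), the epithelial miR-200c-3p (0.82) and miR-320-3p (0.78), and miR-365-3p was most like miR-664-3p (0.91), miR-378a-5p (0.84) and miR-874-5p (0.83). With group means taken away, these r values were between 0.74 and 0.95. They are given as a description with no p, since each was picked as the highest of 436, and the median r of a member over all 436 names was between -0.047 and 0.043.

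miR-378a-5p was at 573 ± 165 CPM in control, 421 ± 194 in DN and 391 ± 33.7 in treated kidneys (SD, n = 6 each), the same order of group means as miR-193a-5p. miR-664-3p was at 192 ± 45.7, 144 ± 62.7 and 140 ± 20.9 CPM, the same order as miR-365-3p. miR-29c-5p was at 101 ± 10.1 CPM in control, 74.5 ± 26.9 in DN and 76.0 ± 7.21 in treated kidneys, the order of miR-193a-3p. Not every neighbour had its member's order. For miR-193a-3p, miR-874-5p was at 13.0 ± 7.17, 7.66 ± 5.47 and 6.20 ± 2.01 CPM, with treated below DN. For miR-193b-3p, miR-200c-3p was at 1590 ± 544, 1384 ± 590 and 1513 ± 334 CPM, with treated above DN. All were picked for their r over these libraries, so a shared order is partly built in.

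Other miRNAs reported in brown fat and muscle differentiation, the setting in which the miR-193b and miR-365-1 cluster is best known, were counted as a list. Of 21 names 20 were tested. As 0 of all 619 entries passed in any of the 3 comparisons, no name of the list could pass. Before adjustment the edgeR p was under 0.05 for 7.59% of all entries in DN against control. It was so for 3.72% in treated against DN and 19.5% in treated against control. Of the 20 list names these were 1, 1 and 3 in the same order. In DN against control 10 were higher and 10 lower, with a median log2FC of 0.011 against 0.075 over all entries, and in treated against control 12 were higher and 8 lower, with 0.12 against -0.0035. In treated against DN 11 were higher and 9 lower, with 0.060 against -0.054. The most abundant of them were miR-30c-5p, at 32918 ± 4642 CPM in control and 33690 ± 12144 in DN, and miR-26a-5p, at 25201 ± 772 and 23685 ± 3118. miR-27b-3p was at 15436 ± 2726 and 19053 ± 5446 and miR-378a-3p at 16109 ± 3297 and 13425 ± 4747 CPM. Striated muscle miRNAs, such as miR-1a-3p and miR-133a-3p, had 3 of 7 markers above 0 in every library and 1 was in no library; their sum ran from 80.7 to 308 CPM over controls, from 43.7 to 120 CPM over DN and from 57.1 to 133 CPM over treated kidneys.

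Of 22 other miRNAs reported in podocytes, the cells in which miR-193a is linked to Wt1, 19 were tested. Here too no name could pass, since 0 of all 619 entries did in any of the 3 comparisons. Before adjustment 1, 0 and 3 of the 19 had an edgeR p under 0.05, in the order given for the former list. In DN against control 11 were higher and 8 lower, with a median log2FC of 0.033, in treated against DN 12 were higher and 7 lower, with 0.084, and in treated against control 12 and 7, with 0.067. The most abundant were miR-30a-5p, at 54318 ± 8127 CPM in control, 57762 ± 22893 in DN and 77513 ± 16257 in treated kidneys, and miR-21a-5p, at 31725 ± 14520, 78013 ± 56802 and 72484 ± 28086 CPM. miR-30e-5p followed at 31790 ± 6617, 36137 ± 17710 and 51691 ± 12035 CPM, and then miR-30c-5p, which the former list also holds. As miR-30a-5p is also among the kidney epithelial markers used above, its level in bulk kidney does not stand for podocytes. miR-21a-5p had a log2FC of 1.30 in DN against control (edgeR adjusted p = 0.277) and 1.19 in treated against control (edgeR adjusted p = 0.173), opposite in sign to all 4 members. Of all entries only 43.5% and 50.2% were below 0 in these comparisons. The DN level of miR-21a-5p includes DN 2, where it took 22.6% of named counts.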

How the data were processed

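The data were small RNA reads of mouse kidney in 18 libraries. Per the labels' protocols, RNA was extracted with Trizol, libraries were made with a TruSeq Small RNA kit, and ACGT101-miR removed adapter dimers, junk and other RNA families; Trimmomatic 0.32, BWA, SAMtools and edgeR are listed in the submitters' processing notes. For the files' genome build and miRBase release, nothing was given in the sources used here. The deposited raw columns held estimated counts, 75.7% of those above 0 being exactly whole. The deposited normalized columns held a signal in which each library's raw values were multiplied by a constant (0.664 to 1.43), and were not tested. Of 1534 entries, 350 without a name (0.0136% to 0.148% of counts) were left out.

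Counts were rounded and fitted with edgeR 4.0.16 (R 4.3.3) on all 18 libraries, with group as the only factor, TMM factors and filterByExpr (minimum count 10, minimum total 15), which kept 619 of 1184 entries. The quasi-likelihood test (legacy, not robust) was 2-sided with Benjamini-Hochberg adjustment over all 619 entries and a threshold of 0.05. The biological coefficient of variation was 0.5. Log2 levels used a prior count of 2. Ratios used exact permutation tests and correlations 100000 permutations (numpy 2.4.6, scipy 1.17.1). The edgeR procedure was tested on simulated counts with a smaller spread than these data and larger changes than those of the members. That test therefore does not show how often changes of the members' size would be found here. The fit was repeated with RLE factors, with no factors beyond library size, unfiltered, with at least 10 CPM in 6 libraries required, with DESeq2 1.42.0 and limma-voom (limma 3.58.1), and with a robust prior. Further repeats took the replicate number as a block, used just the pair of groups at issue, summed entries that share a name, set a prior count of 0.5 for ratios, dropped each library in turn, and dropped control 2, DN 2 and DN 3 at once. Dropping control 2, DN 3 and treated 5 at once, and the edgeR 4 method, were chosen after seeing the data. Members, lists and tests were chosen with earlier results of these data known. Named were the members, the other arms, the 3 most similar miRNAs per member and the 4 most abundant of each list.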

Additional observations from a re-analysis of the deposited data

Results flagged for a closer look

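Among 27 groups of 6 values (9 quantities in 3 groups), 3 held a library whose gap to its nearest neighbour was a larger share of the group's range than Dixon's 95% critical value for 6 values; chance flags about 1 in 20 groups. miR-193b-3p was at 444 CPM in DN 3, against 150 CPM in the next DN library. The log2 ratio of miR-193b-3p to miR-365-3p was -1.72 in treated 5, against -2.74 in the next treated library. The log2 ratio of miR-193a-3p to miR-365-3p was -2.36 in control 6, against -3.07 in the next control.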

How the results depend on the processing

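All 4 members stayed below 0 against control, in DN and in treated kidneys, under all 31 alternatives. The causes of the changes below were not tested.

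The count of entries called in DN against control, 0 by edgeR, was 2 with at least 10 CPM in 6 libraries, 4 with DESeq2, 91 with limma-voom, 51 without control 2, DN 2 and DN 3, 1 without control 2, DN 3 and treated 5, 6 with the edgeR 4 method and 0 to 6 with 1 library left out (6 without DN 2 and without DN 3, 1 without control 2). In treated against control it was 24 with DESeq2, 106 with limma-voom, 56 with just those groups fitted, 50 without control 2, DN 2 and DN 3, 1 without control 2, DN 3 and treated 5, 3 with the edgeR 4 method and 0 to 7 with 1 library left out (7 without DN 2, 3 without DN 3). In treated against DN it was 0 under all alternatives.

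In treated against control, members passed the threshold in 3 settings. Over all entries, limma-voom called 106 of 619 and the fit of just those groups 56 of 574. Leaving out control 2, DN 2 and DN 3 called 50 of 636. The members passing with limma-voom were miR-193a-3p (log2FC -0.72), miR-193a-5p (-0.69) and miR-365-3p (-0.75). With just those groups fitted they were miR-193a-5p (-0.79) and miR-365-3p (-0.78), and without control 2, DN 2 and DN 3 miR-193a-5p (-0.60) and miR-365-3p (-0.80).

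In treated against DN the sign turned for miR-193a-5p, miR-193b-3p and miR-365-3p. Without control 2, DN 2 and DN 3 the log2FC was 0.067, 0.43 and 0.075 in that order, and without control 2, DN 3 and treated 5 it was 0.23, 0.18 and 0.23. With 1 library left out it ran from -0.40 to 0.30, -0.43 to 0.49 and -0.36 to 0.25, and miR-193b-3p was at 0.17 with limma-voom. With the replicate block it was 0.0057, 0.079 and 0.040; that fit called 0 entries in each comparison. The numbers are not shown to pair the libraries: correlations of same-numbered libraries ran from -0.33 to 0.26, and 0 of 18 libraries correlated best with their own number.

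Differences in log2 ratio, all small, changed sign too. Without control 2, DN 2 and DN 3, treated against control was -0.13 for miR-193a-3p to miR-193a-5p, -0.045 for miR-193a-3p to miR-193b-3p and 0.060 for miR-193b-3p to miR-365-3p, and treated against DN was -0.19 for miR-193a-3p to miR-193b-3p. Without control 2, DN 3 and treated 5, miR-193a-3p to miR-193a-5p was -0.072 against DN and -0.13 against control, miR-193b-3p to miR-365-3p was -0.12 against DN and miR-193a-3p to miR-365-3p was -0.023 against control. With 1 library left out, treated against DN ran from -0.073 to 0.25 for miR-193a-3p to miR-193a-5p, -0.029 to 0.39 for miR-193a-3p to miR-193b-3p and -0.19 to 0.13 for miR-193b-3p to miR-365-3p. Treated against control ran from -0.13 to 0.17 for miR-193a-3p to miR-193a-5p, -0.075 to 0.32 for miR-193a-3p to miR-193b-3p, -0.31 to 0.085 for miR-193b-3p to miR-365-3p and -0.054 to 0.16 for miR-193a-3p to miR-365-3p. Their adjusted p stayed between 0.871 and 0.996.

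Depth limits the other arms most, with 15 to 871 reads in all libraries together.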
